A study of Mus musculus with 12 samples.

Results

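The nuclear-encoded subunits of respiratory complexes I, III and IV were examined in mouse embryonic stem cells (mESCs), a pluripotent cell type. Members were the protein-coding genes whose GENCODE name starts with Ndufa, Ndufb, Ndufc, Ndufs, Ndufv, Uqcr, Cox4, Cox5, Cox6, Cox7 or Cox8, without the Ndufaf assembly factors and pseudogene names. The rule found 66 gene entries among 34079 genes with exonic values, of which 21503 were protein-coding. Of these entries, 37 belong to complex I, 8 to complex III and 20 to complex IV. The remaining entry, Cox4nb, is taken by its name alone, as it encodes a subunit of an endoplasmic reticulum membrane complex and lies beside Cox4i1. Ndufb8 has 2 entries that overlap on the same strand, and reads of both cannot be told apart. Ndufa4 and its paralog Ndufa4l2 were counted with complex IV, where the Ndufa4 protein is now placed.

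The cells were DTCM23/49 XY mESCs grown with serum and leukemia inhibitory factor on gelatin, and no group lacked 4sU or carried another treatment. A confluent culture was divided to give 2 biological replicates, so both come from a single line. The p-values below measure the residual spread between libraries of these cultures, pooled over labeling times. The main fits take the 6 libraries of a fraction as independent, although they come from 2 cultures. 4sU, a uridine analog taken up by the cells and incorporated during transcription, was given at 200 µM for 15, 30 or 60 min. Total RNA and the biotinylated, newly transcribed (labeled) RNA of each culture and time were sequenced, giving 6 total and 6 labeled libraries.

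The respiratory chain passes electrons from NADH to oxygen and pumps protons across the inner mitochondrial membrane. Complex I takes electrons from NADH, complex III passes them from ubiquinol to cytochrome c, and complex IV hands them to oxygen. Each complex joins a small part encoded by mitochondrial DNA to many subunits encoded in the nucleus, made in the cytosol and imported. Their mRNAs are known as short, abundant and stable housekeeping messages. NRF1, GABP of the ETS family and YY1 are known to act at their promoters.

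Promoters in the RefSeq table on GRCm38.p6, from 250 bases before to 50 after the annotated start, were found for 51 of 65 member symbols. They were searched on both strands for 4 motifs, and the matches are shown as a sequence feature that the naming rule did not use. The NRF1 core GCGCATGC was in the promoters of 6 members (11.8%), against 3.05% of all 27025 gene symbols in the table. The motif is in capitals in the following windows, 5′ to 3′ on the strand of the gene, with the position of the first capital counted from the annotated start, which is 1.
Ndufa11: acctgcactgcGCGCATGCgcgcacgcctt (chr17:56717691-56717720, plus strand, motif at -60)
Ndufa6: tccgcggtagaGCATGCGCattgcagagcc (chr15:82354356-82354385, minus strand, motif at -83)
Ndufa8: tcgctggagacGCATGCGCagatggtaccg (chr2:36049328-36049357, minus strand, motif at -8)
Uqcr11: atcgccttcacGCATGCGCtatacgtctgc (chr10:80406807-80406836, minus strand, motif at -4)
Uqcrc1: gactccgctctGCGCATGCgcagcgcggct (chr9:108936667-108936696, plus strand, motif at 31)
Cox6a1: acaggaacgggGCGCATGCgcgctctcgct (chr5:115349102-115349131, minus strand, motif at -162)
The same core read on the other strand is GCATGCGC, and both overlap in Ndufa11, Uqcrc1 and Cox6a1. The YY1 motif AAGATGGC was in 7 members (13.7%), against 3.19% of all symbols.
Ndufa3: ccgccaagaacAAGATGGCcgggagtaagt (chr7:3617384-3617413, plus strand, motif at 23)
Ndufa9: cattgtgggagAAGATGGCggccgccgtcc (chr6:126849097-126849126, minus strand, motif at 30)
Ndufb8: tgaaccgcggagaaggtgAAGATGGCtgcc (chr19:44555393-44555422, minus strand, motif at 39)
Ndufc1: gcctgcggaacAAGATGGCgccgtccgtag (chr3:51408915-51408944, minus strand, motif at 23)
Ndufs4: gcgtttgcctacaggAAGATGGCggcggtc (chr13:114388045-114388074, minus strand, motif at 36)
Ndufs6: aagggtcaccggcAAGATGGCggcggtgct (chr13:73328433-73328462, minus strand, motif at 34)
Ndufs7: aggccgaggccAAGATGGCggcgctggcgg (chr10:80249462-80249491, plus strand, motif at 25)
All 7 of these matches lay on the strand of the gene, between positions 23 and 39. The motif holds an ATG, and whether it is the start codon was not examined. The ETS motif CCGGAAGT was in 4 members (7.84%), namely Ndufs3, Uqcr11, Uqcrh and Cox8a, against 4.31% of all symbols. CCAAT was in 19 members (37.3%), against 41.1%. A match of letters is a description and no evidence of binding.

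The values are length-normalised abundances in which exons and introns of a library together sum to between 19988830 and 19992902. The files do not give the depth of each library, so counting error could not be given. The intronic share of all signal was 6.53% to 7.41% in the total libraries and 6.99% to 14.8% in the labeled libraries. Labeled libraries differed among themselves. The share was 14.8% and 13.9% in the 15 and 60 min libraries of replicate 1, and 7.24% and 6.99% in those of replicate 2. The labeled 60 min library of replicate 2 also stood apart in exonic values, and correlated best across genes with a total library, that of 60 min replicate 1 (r = 0.925). The total libraries of 15 min replicate 2 and 60 min replicate 1 were most like each other (r = 0.952). Counts of calls were also computed without the labeled 60 min library of replicate 2, and without each of these total libraries in turn.

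The fraction labels were checked with mRNAs of known stability, by exonic level. Among short-lived mRNAs, 4 of the 6 past the filter were higher in labeled RNA, of which Ier3 passed the filter only through labeled RNA. The others were Egr1, Klf2 and Ier2, with Ier2, an immediate early gene, higher by 1.36 on the log2 scale (limma adjusted p = 0.0043). Among long-lived mRNAs, 4 of 6 were lower, with Actb, encoding beta-actin, at a log2 difference of -1.02 (limma adjusted p = 0.0023). Pou5f1, a pluripotency factor, was at 1645 ± 121 in total RNA (SD, n = 6) and Nanog at 5712 ± 1939, and all 10 mESC markers passed the filter. Of feeder fibroblast markers, Col3a1, Dcn and Postn were listed at 0 in every library, and Thy1 was the most abundant of the 6 and the only one past the filter, at 38.6 ± 9.90. Of the other markers, Pax6 was at 48.3 ± 47.4, Nes at 31.9 ± 4.76, and Kdr, Cdx2 and Afp were listed at 0. No endoderm, mesoderm or trophectoderm marker passed the filter, but several were detected. Gata4 was at 11.6 ± 6.13, Eomes at 11.6 ± 3.63, Mixl1 at 4.05 ± 3.02 and Elf5 at 1.46 ± 0.941. In total RNA, Gata6 was at 0.228 and T at 0.403, and Sox17 and Foxa2 were listed at 0.

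In total RNA, most subunit mRNAs were abundant, and their levels differed widely within each complex. Of the 66 entries, 61 passed the filter of a mean exonic value of 20. The 5 that did not were Cox4i2, Cox6a2, Cox8b, Cox8c and Ndufa4l2. The median level in total RNA was 448 for the 37 entries of complex I, 780 for 8 of complex III and 689 for 15 of complex IV, while it was 169 for all 10637 protein-coding genes past the filter. Of the members, 49 lay above that median. Members together made 0.436% ± 0.0603 of the exonic signal in total RNA and 0.487% ± 0.0785 in labeled RNA (SD, n = 6 each). The labeled 60 min library of replicate 2 was highest at 0.632%, and the other labeled libraries lay between 0.418% and 0.511%. In the order of levels, 55 of 60 neighbours differed by less than their combined SD. The 5 steps that exceeded it were those from Cox7c down to Cox7b, Cox6a1 to Ndufb8, Ndufs7 to Ndufv3, Ndufb7 to Ndufa8 and Ndufa8 to Cox7a1.

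**Figure D1:**
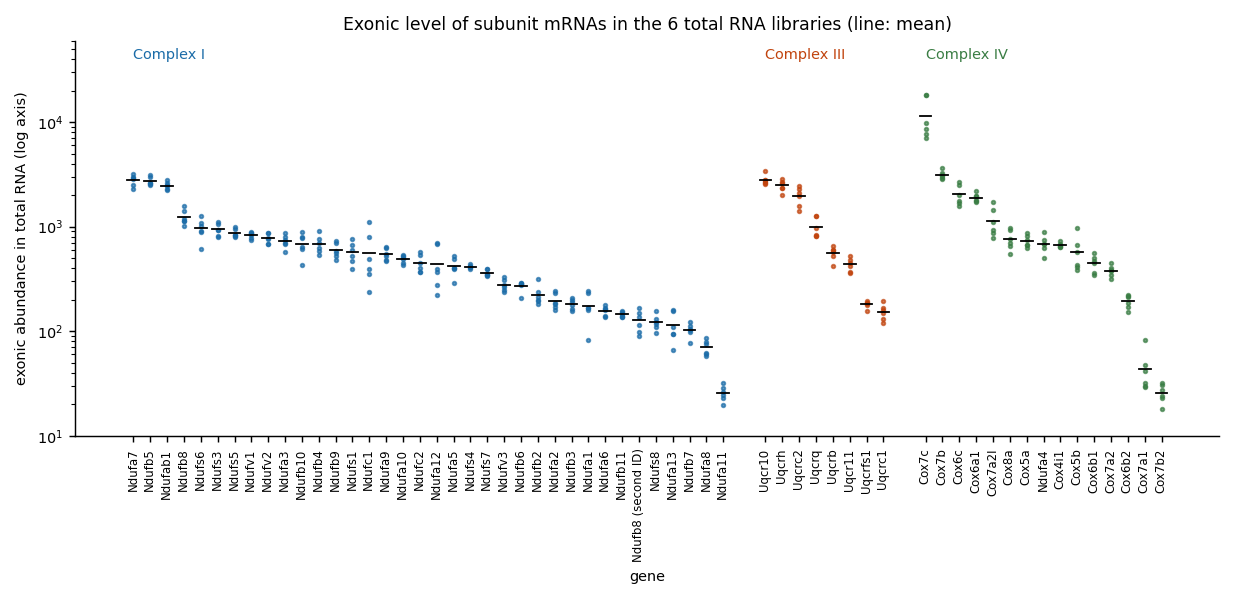
Exonic abundance of subunit mRNAs in total RNA, on a log axis, with a point for each of the 6 total libraries and a line at their mean, by complex. Cox7c lies highest, with values from 6972 to 18283, and Cox7b2 and Ndufa11 lowest, near 25.8.

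In complex I, the catalytic core subunits described are Ndufs1, Ndufs3, Ndufs7, Ndufs8, Ndufv1 and Ndufv2, which carry iron-sulfur clusters or the flavin or lie beside them. Ndufs1, the largest core subunit and the one with most iron-sulfur clusters, was at 391, 557 and 762 in total RNA and 319, 464 and 574 in labeled RNA. The ranges overlapped between the fractions. Ndufv1, which binds NADH and flavin, was at 831 ± 57.4 in total RNA and its partner Ndufv2 at 773 ± 85.9 (SD, n = 6). Ndufs3, Ndufs7 and Ndufs8 were at 942 ± 126, 362 ± 26.7 and 122 ± 20.5. Among these, Ndufs8 was lowest and Ndufs3 highest on the per-length scale. The accessory subunit Ndufa11 was lowest in the complex, at 19.6, 25.4 and 32.3 in total RNA.

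In complex III, Uqcr10, a small subunit beside the Rieske protein and cytochrome c1, was highest at 2581, 2723 and 3390 in total RNA. Uqcrc1, a core protein of the matrix arm, was lowest at 121, 155 and 193. The Rieske iron-sulfur protein Uqcrfs1 was at 157, 187 and 196 in total RNA and 166, 201 and 225 in labeled RNA, with overlapping ranges.

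In complex IV, forms known from muscle, lung or testis had lower levels than the ubiquitous form of their group, and several were near 0. Cox4i1 was at 666 ± 36.8 in total RNA, while Cox4i2, the lung form, was at 5.73 ± 5.07 (SD, n = 6). Cox6a1 was at 1895 ± 181, and Cox6a2, the heart and muscle form, was listed in 3 of 6 total libraries at no more than 2.34. Cox8a was at 757 ± 163, Cox8b was listed at 0 in every total library, and Cox8c in 5 of them. Ndufa4 was at 689 ± 127 and Ndufa4l2 at 2.01 ± 0.836. In other groups a further form passed the filter. Cox6b1 was at 449 ± 81.4 and the testis form Cox6b2 at 193 ± 27.7, above the median of protein-coding genes. Cox7b was at 3134 ± 278 and the testis form Cox7b2 at 25.9 ± 5.32. Cox7a2l, known for its part in supercomplexes, was at 1145 ± 367, Cox7a2 at 379 ± 47.1 and the muscle form Cox7a1 at 43.9 ± 20.3. Muscle markers of the cardiac and skeletal list were low, with none of 5 past the filter.

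Some members varied several-fold between libraries of the same fraction, and they did so together, whereas others hardly varied. The SD of the log2 level over the 6 total libraries had a median of 0.231 for members and 0.246 for all genes. In 10 members the highest total library was more than 2 times the lowest. The members described in this paragraph were chosen after their values were seen. Ndufc1, a small membrane subunit of complex I, went from 239 in the total 30 min library of replicate 1 to 1116 in that of 15 min replicate 2. Ndufa12, an accessory subunit, ranged from 221 to 701 and Cox7c, a small subunit of complex IV, from 6972 to 18283. Their high total libraries were those of 15 min replicate 2 and 60 min replicate 1, and their high labeled libraries those of 15 min replicate 1 and 60 min replicate 2. For 26 of 61 members (42.6%), these total libraries were the highest of the 6, as they were for 10.3% of all genes. Of the members, 40 (65.6%) were highest among labeled libraries in that of 60 min replicate 2, as were 14.5% of all genes. Ndufs1 had its lowest total values in the same pair of total libraries. Cox4i1 and Ndufs4 stayed within 632 to 730 and 392 to 443 in total RNA. No label or header gives a batch, and the part of RNA quality or library preparation in this spread was not tested.

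**Figure D2:**
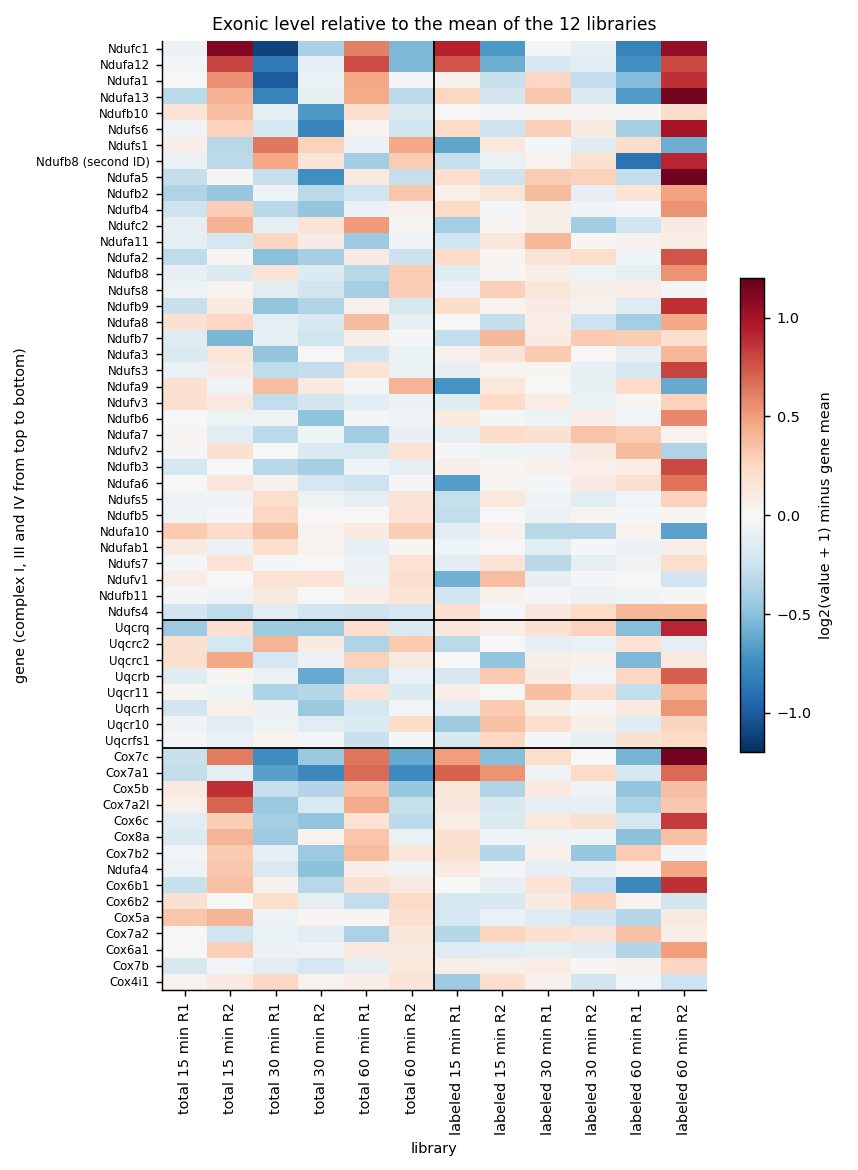
Exonic level of subunit mRNAs past the filter in each library, as log2(value + 1) minus the mean of the gene over 12 libraries; rows are genes by complex and columns are libraries. Red cells gather in the total libraries of 15 min replicate 2 and 60 min replicate 1 and in the labeled library of 60 min replicate 2.

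Whether the mRNAs of the chain were over- or under-represented in newly transcribed RNA was asked by comparing exonic levels between labeled and total RNA. Members hardly differed between the fractions, and 2 of 61 passed the test. Ndufs4, an accessory subunit of the electron input arm of complex I, was higher in labeled RNA. Its locus is chr13:115078003-115178302, minus strand (GENCODE M1, mm9). Its lowest, median and highest values were 392, 412 and 443 in total RNA and 478, 561 and 639 in labeled RNA. The groups did not overlap, with a log2 difference of 0.45 ± 0.092 (SE; limma adjusted p = 0.0085). The difference was 0.45 without replicate 1 and 0.44 without replicate 2, where no member was called (limma adjusted p = 0.50 and 0.33 for Ndufs4). Ndufa10, an accessory matrix subunit (chr1:94335587-94370437, minus strand), was lower. Its values were 430, 501 and 532 in total RNA and 267, 356 and 436 in labeled RNA, which overlapped. The log2 difference was -0.45 ± 0.13 (SE; limma adjusted p = 0.035). With culture and time as a block, 1 member was called and Ndufa10 was not (adjusted p = 0.085 under limma with the replicate block), and calls over all genes fell from 2353 to 1270. Without the total 60 min library of replicate 1, Ndufa10 was not called either (limma adjusted p = 0.053).

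The single member called higher (1.64%) compares with 5.28% of all 13977 genes, and the single one called lower (1.64%) with 11.6%. The median log2 difference of the members was 0.10, against -0.05 over all genes. Without the labeled 60 min library of replicate 2 these medians were 0.02 and -0.01, and at 15 min alone -0.05 and -0.01. At 30 min alone they were 0.22 and -0.08, and at 60 min alone 0.10 and -0.08. Without replicate 1 they were 0.16 and -0.07, and without replicate 2 they were 0.07 and -0.04. By complex, the members' median with every library was 0.10 in complex I, 0.18 in complex III and -0.04 in complex IV. In complex I, Ndufa5, a matrix subunit, had the highest estimate at 0.47 ± 0.23 (SE; limma adjusted p = 0.18), which was 0.29 without the labeled 60 min library of replicate 2. In complex III, Uqcrb, a quinone site subunit, had the highest estimate at 0.38 ± 0.15 (limma adjusted p = 0.099), and Uqcrc1 the lowest at -0.26 ± 0.17 (limma adjusted p = 0.31), which turned to 0.20 at 30 min alone. In complex IV, Cox7a1 had the highest estimate at 0.64 ± 0.25 (limma adjusted p = 0.098) and Cox5a, which binds near cytochrome c, the lowest at -0.30 ± 0.11 (limma adjusted p = 0.075). Cox5a passed the test without the labeled 60 min library of replicate 2, and Cox7a1 without the total 60 min library of replicate 1. Only Ndufs4 and Ndufb3, a membrane arm subunit, were higher in every labeled than in every total library, against 2.72% of all genes, and no member was lower in every labeled library, against 7.28% of all genes.

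The exonic difference moved with transcript length over all protein-coding genes. Its median was 0.14 for genes of up to 400 nt, 0.13 at 400 to 600 nt and 0.17 at 600 to 800 nt, and from there lower in each longer class, down to -0.26 over 4000 nt. Members were short, with a median transcript length of 683 nt, 165 uridines and 4 exons, against 2298 nt, 558 uridines and 8 exons for protein-coding genes past the filter. Under 1000 nt lay 70.5% of the members and 12.4% of those genes. The median log2 difference of all 1315 protein-coding genes under 1000 nt was 0.11, next to 0.10 for the members. In the labeled 60 min library of replicate 2, the median relative to the mean of total RNA went from 0.46 at up to 400 nt to -0.58 over 4000 nt. In that of replicate 1 it was -0.01 at up to 400 nt, 0.13 at 1000 to 1500 nt and -0.12 over 4000 nt. The other labeled libraries were not examined in this way. The part of uridine number, length and library preparation in these differences was not tested.

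**Figure D3:**
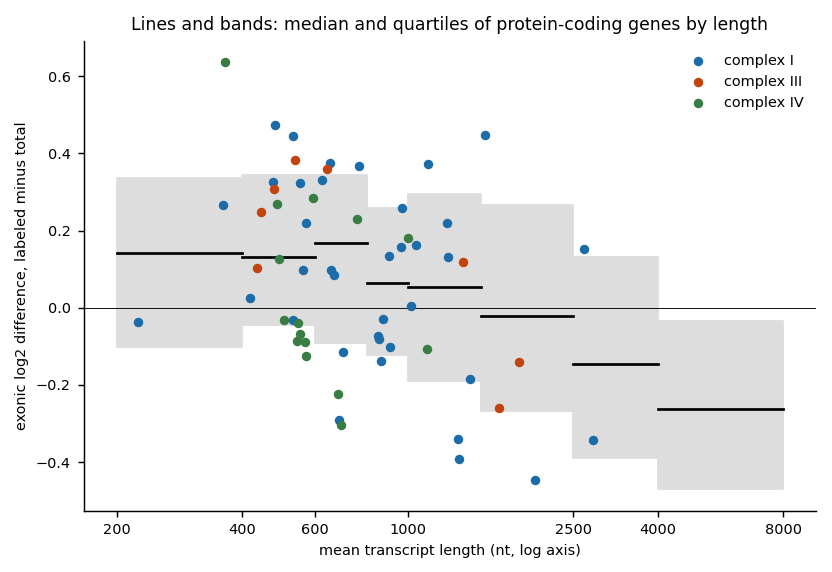
Exonic log2 difference between labeled and total RNA against mean transcript length, on a log axis; points are members, and black lines and grey bands are the median and quartiles of protein-coding genes in 8 classes of length, the outer ones drawn to the limits of the axis. Medians lie between 0.13 and 0.17 up to 800 nt and are lower in longer classes, down to -0.26, and most members are under 1000 nt, on both sides of zero.

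The introns of the subunit genes, which report on unspliced precursors, were higher in labeled RNA for 40 of 63 members past the intronic filter of 1. All 63 had a positive estimate, as did 94.8% of all 18154 genes. Those called were 63.5%, against 26.3% of all genes. None was called lower, against 0.143% of all genes. The called members numbered 24 of 37 in complex I, 5 of 8 in complex III and 10 of 17 in complex IV, beside Cox4nb. Both overlapping entries of Ndufb8 are counted among those called in complex I, though their reads cannot be told apart. The median log2 difference was 0.99 for members and 0.64 for all genes. In 25 members the introns were higher in every labeled than in every total library, against 14.4% of all genes. Centring each library on its median, which removes a shift of 0.70 on the log2 scale common to all genes, left a median of 0.30 for members and -0.05 for all genes, with 7 members higher and 1 lower and, over all genes, 756 higher and 888 lower.

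Intronic differences moved with transcript length. Among protein-coding genes past the exonic filter, the share called higher was 34.4% up to 400 nt (32 genes), 59.7% at 400 to 600 nt, 59.5% at 600 to 800 nt, 51.7% at 800 to 1000 nt and 43.2% at 1000 to 1500 nt. It was 33.5%, 22.4% and 11.6% in the longer classes, which end at 2500 nt, at 4000 nt and above. The median went from 0.64 up to 400 nt to 1.10 at 400 to 600 nt, and was 0.45 above 4000 nt. Of the 61 members past the exonic filter, 21 lay in the class of 400 to 600 nt and 11 each in those of 600 to 800 and 1000 to 1500 nt. Under the intronic filter alone, which also takes in genes below the exonic filter, 39.2% of 1721 protein-coding genes under 1000 nt were called higher. The share was 63.5% among members, of which 61 passed both filters. The sets are thus unlike, and the difference between these shares was not tested.

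The highest intronic difference belonged to Ndufb10, a membrane arm subunit of complex I. Its intronic values were 2.10, 30.0 and 54.0 in total RNA and 77.1, 135 and 230 in labeled RNA (lowest, median and highest). Both total 30 min libraries were low, at 2.10 and 7.78, and the other total libraries lay between 25.4 and 54.0. The size of the difference, and with it the first place, leans on that labeling time. The groups did not overlap, at a log2 difference of 2.77 ± 0.53 (SE; limma adjusted p = 0.0033). Cox8a, the ubiquitous form of the smallest type of complex IV subunit, gave a difference of 1.98 ± 0.24 (limma adjusted p = 0.0013). Its introns were at 17.4, 21.2 and 32.3 in total RNA and 71.3, 89.98 and 108 in labeled RNA, while its exons were at 546, 725 and 971 and at 520, 708 and 932. Intronic signal thus rose in every labeled library at overlapping exonic levels. Among core subunits, introns of Ndufv1, Ndufs3, Ndufs7 and Uqcrfs1 were called higher, by 0.95 to 1.61 on the log2 scale, and Ndufs1 and Ndufv2 were not, at 0.25 ± 0.34 and 0.50 ± 0.30 (limma adjusted p = 0.57 and 0.21). Ndufs8 introns passed the filter only through labeled RNA, with means of 0.61 in total and 2.95 in labeled RNA, and their call is among the 40 but is not read as a difference. Ndufs4 had the lowest difference, at 0.04 ± 0.45 (limma adjusted p = 0.95). Its introns were at 10.7, 12.9 and 14.9 in total RNA and 4.93, 12.1 and 36.0 in labeled RNA. They were high at 15 and 60 min of replicate 1. They lay below every total value at 15 and 60 min of replicate 2 and, at 9.49, at 30 min of replicate 1. Estimates for Ndufs4 changed sign under several settings.

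**Figure D4:**
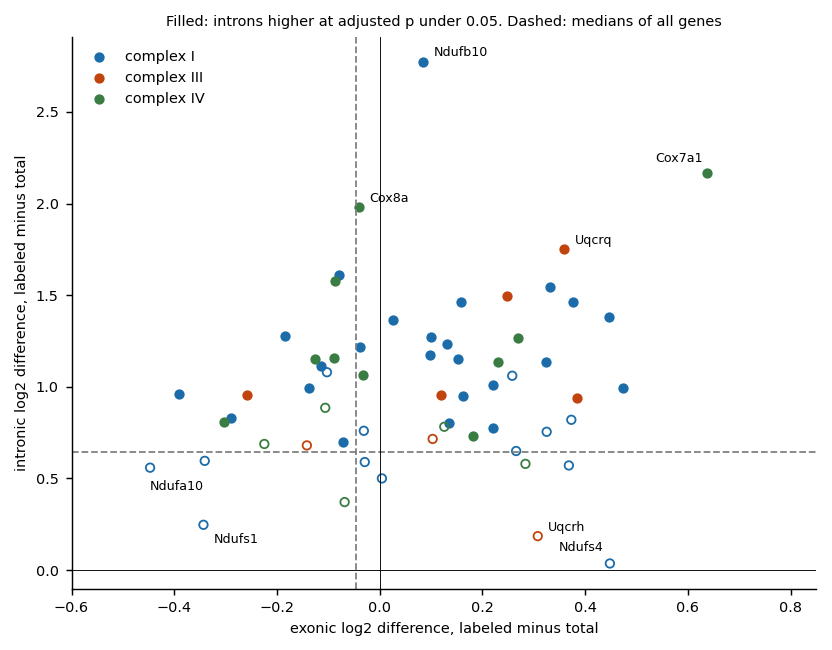
Intronic against exonic log2 difference between labeled and total RNA, a point for each member by complex, with dashed lines at the medians of all genes (0.64 and -0.05). Filled points were called higher in introns. All points lie above zero in introns, as do 94.8% of all genes, and exonic differences scatter on both sides of zero.

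The number of intronic calls depended on the replicate. Without replicate 1, 0 of 63 members and 4 of all genes were called, with medians of 0.75 and 0.28, and without replicate 2 these were 34 members and 7789 genes. Without the labeled 60 min library of replicate 2, 54 members and 8130 genes were called. Without the total library of 15 min replicate 2 these were 28 and 3135, and without that of 60 min replicate 1 they were 32 and 3731, against 40 and 4800 with every library.

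Relative to exons, introns of Uqcrq, a small complex III subunit (chr11:53241424-53244333, minus strand), were the most abundant. In total RNA its intronic value was 687, 960 and 1112 and its exonic value 817, 903 and 1275, and the intron-to-exon ratio on the per-length scale was 76.3%, 134% and 80.0% at 15, 30 and 60 min, with a mean of 96.8%. In labeled RNA the introns reached 1715, 3458 and 4574 and the exons 775, 1237 and 2091. The intronic difference was 1.75 ± 0.21 (SE; limma adjusted p = 0.0013). At the other end, Ndufs8 introns were listed at 0 in 4 of 6 total libraries and came to 0.499% of exons with blanks, which stand for values of 1 or less, taken as 0. The lowest place in this order is therefore not settled. Uqcrh, a hinge protein of complex III named here after its values were seen, had introns at 21.6% of exons in total RNA and a difference of 0.19 ± 0.28 (limma adjusted p = 0.60). Its intronic values were highest where Cox7c was high, at 761 and 677 in the total libraries of 60 min replicate 1 and 15 min replicate 2 and at 1078 in the labeled 60 min library of replicate 2. A pseudogene, Gm12854, lies in the Uqcrh locus on the opposite strand, and a snoRNA, snoZ39, lies within Cox7c on its own strand. Their part in the intronic signal was not tested.

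**Figure D5:**
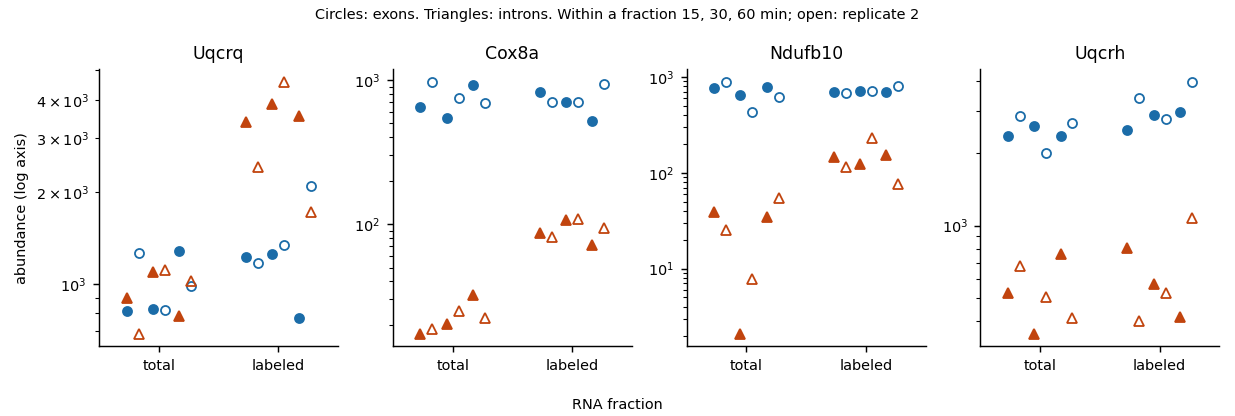
Exonic (circles) and intronic (triangles) abundance of 4 members in total and labeled RNA, on log axes that differ between panels; within a fraction, points run from 15 to 60 min and open points are replicate 2. Introns of Uqcrq, Cox8a and Ndufb10 lie higher in every labeled library, and those of Uqcrh overlap.

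The intron-to-exon ratio itself, tested within each library, was higher in labeled RNA for 22 of 61 members (36.1%), against 25.1% of all 10654 genes, and lower for none, against 0.206%. The 22 include Ndufs8, whose introns passed the filter only through labeled RNA, and its call is not read as a difference. Both overlapping entries of Ndufb8 are also among the 22. The median log2 difference of the ratio was 0.99 for members and 0.71 for all genes. Among protein-coding genes under 1000 nt, 32.7% were called higher, at a median of 0.80. Cox8a had a difference of 2.02 ± 0.30 (SE; limma adjusted p = 0.0046) and Cox7b2 also passed (limma adjusted p = 0.0050). Without the labeled 60 min library of replicate 2 the calls were 41 members and 3999 genes, and without the total 15 min library of replicate 2 they were 14 and 1421, against 22 and 2692 with every library. Without replicate 1 they were 4 and 464, and without replicate 2 they were 20 and 4501. After median centring 2 members were higher and 1 lower, and over all genes 547 and 460.

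In both fractions the members had less intronic signal per exonic signal than most genes. In total RNA, with each gene averaged over the 3 labeling times, introns were at a median of 6.14% of exons in members (quartiles 3.02% and 10.5%) and at 16.2% in 10060 protein-coding genes, and 5 of 61 members lay above the latter. Protein-coding genes under 1000 nt were at 9.61%. In labeled RNA the medians were 13.9%, 30.5% and 17.6%. Processing was expressed as labeled exonic signal per hour over intronic signal in total RNA. The mean of each gene over the 3 labeling times had a median of 46.2 per hour in members, 14.0 in protein-coding genes and 26.6 in those under 1000 nt, and 55 of 59 members with a value at all times lay above the median of protein-coding genes. The scaling gives every library an equal sum, so the summed signal did not grow with labeling time. The median for members fell from 87.3 at 15 min to 31.2 at 30 min and 17.7 at 60 min. Dividing a signal of fixed sum by a longer time lowers the rate by construction, so this fall is not read as slower processing. The mean over the 3 labeling times leans on the 15 min value. Members were above protein-coding genes at each time, where those medians were 25.3, 10.8 and 5.80. Synthesis, as labeled exonic signal per hour, had a median of 1267 in members and 388 in protein-coding genes, and the labeled-to-total ratio of exons one of 1.10 and 0.96. This ratio was 1.12 in protein-coding genes under 1000 nt, and at 15 min it was 0.957 in members and 0.979 in protein-coding genes. These measures are descriptions without a test, relative to the scaling of the libraries.

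Whether levels changed with labeling time was compared between 60 and 15 min, with 2 libraries a group. No member and no gene was called by limma in labeled RNA, in total RNA or in the difference between them, which gives 0% of 13977 genes in each comparison. At an unadjusted p under 0.05 there were 1 member and 178 genes in labeled RNA, 0 members and 108 genes in total RNA, and 1 member and 162 genes in the difference. The member was Ndufa6, an accessory subunit of complex I, in both, at 0.74 ± 0.28 (SE) in labeled RNA and 0.94 ± 0.39 in the difference. The median log2 difference between 60 and 15 min in labeled RNA was 0.12 for members and -0.09 for all genes, and in total RNA it was -0.02 and -0.01. Without the labeled 60 min library of replicate 2, the medians in labeled RNA were -0.04 and 0.08. Without the total 15 min library of replicate 2 those in total RNA were 0.07 and -0.08, and without the total 60 min library of replicate 1 they were -0.01 and 0.09.

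Other genes of oxidative phosphorylation were counted in the same fits. Of 15 ATP synthase genes, 1 was higher and 0 lower in exons, and 11 were higher in introns, with a median intronic difference of 1.10. Over all genes, 5.28% were higher and 11.6% lower in exons and 26.3% higher in introns, where the median was 0.64. The exonic call was Atp5j, encoding a coupling subunit, at 5220 ± 400 in total RNA and 6814 ± 640 in labeled RNA (SD, n = 6), a log2 difference of 0.38 ± 0.085 (SE; limma adjusted p = 0.012). Of 4 complex II genes, 0 passed in exons and 2 in introns, and Sdhc, a membrane anchor, had the largest exonic estimate at -0.35 ± 0.18 (limma adjusted p = 0.20). Cyc1, encoding cytochrome c1 of complex III, was lower in exons at -0.47 ± 0.13 (limma adjusted p = 0.029), and introns of both Cyc1 and Cycs were higher. Of 33 assembly factors, 23 had rows and 22 passed the exonic filter, none of which was called, and 9 of 23 were higher in introns. Cox19, which serves copper delivery, had an exonic estimate of 0.63 ± 0.25 (limma adjusted p = 0.10), but it passed the filter only through labeled RNA, with means of 16.8 in total and 26.1 in labeled RNA. Of 12 regulators of respiratory genes, 9 were tested in exons. Gabpa, the DNA-binding subunit of GABP, was lower at -0.75 ± 0.11 (limma adjusted p = 0.0020), from 4211 ± 361 in total RNA to 2526 ± 387 in labeled RNA. In introns, 1 of 11 regulators was higher. The mitochondrially encoded subunits were not analysed here.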

How the data were processed

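Members and gene lists were chosen with earlier results of these data known. Per the labels and the methods, the authors removed rRNA reads, aligned the rest with STAR 2.5.0 and quantified exons and introns with RSEM, and the submitters' processing notes name mm10. The deposited values are a signal, length-normalised and scaled together in each library, with values of 1 or less blank, and the depth of each library is not given in them. Blanks were taken as 0.

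Transcript values were summed by gene through GENCODE M1 (mm9), in which 83847 of 121429 exonic transcripts (69.1%) were found. Exons with a mean of at least 20 and introns with a mean of at least 1 over 12 libraries entered linear models of log2(value + 1) on fraction and labeling time (limma 3.58.1, R 4.3.3, eBayes with trend). Adjusted p-values (Benjamini-Hochberg) cover all genes tested, and 0.05 was the threshold. Contrasts of 60 against 15 min used 6 groups. Fold changes of low genes are understated on this scale. Whether reads kept their strand is not given in the sources used here, so overlapping genes are uncertain. The ratio test took log2(intron + 1) minus log2(exon + 1). The fits were tested on simulated data, where the largest changes set were mostly recovered in each contrast tried and the smallest mostly were not, so a missing call does not show that a gene did not change.

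The labels number cultures, so libraries of 1 culture and time pair; their deviations correlated across genes at -0.07, 0.05 and -0.19 for 15, 30 and 60 min. Alternatives were another pseudocount, no or a stricter filter, median centring, the replicate block, each replicate left out, single times and the most abundant transcript. Left out singly were the labeled 60 min library of replicate 2 and the total libraries of 15 min replicate 2 and 60 min replicate 1. Copies of members' transcripts in mm9 (at least 95% identity over 50% of the length, BLAST 2.17.0) were found for 12 of 66, which could share reads: Ndufb11, Ndufb3, Ndufs3, Ndufs5, Ndufs6, Uqcr11, Uqcrb, Uqcrh, Cox5b, Cox6c, Cox7a2l and Cox7c. Values of 1 member are not reported here, though counts and medians include it. Otherwise, named with values were the core subunits, the paralog groups, the extremes of level, exonic and intronic difference and intron-to-exon ratio, and the largest exonic difference of each other list. Ndufa6, and the members marked so in the text, were named after their values were seen. Python 3.11.15 with pandas 2.3.3 and numpy 2.4.6 was used elsewhere.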

Additional observations from a re-analysis of the deposited data

Results flagged for a closer look

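Among 124 sets of 6 libraries (total or labeled) of the named members, 13 had a highest or lowest library far from the other 5. The cutoff gives about 1 in 20 for independent, normally distributed values. The sets share libraries and some members were named for extreme values, so that rate may not hold here. Of the 13, 6 were exonic values highest in the labeled 60 min library of replicate 2. They were Ndufa5 at 1085 (next 597), Ndufb10 at 799 (704), Ndufs3 at 1737 (1017), Cox6a1 at 2560 (1679), Cox7b at 3941 (3533) and Ndufa4 at 979 (764). In total RNA, Uqcr10 exons reached 3390 in the 60 min library of replicate 2 (next 2816) and Cox7a1 exons 82.7 in that of replicate 1 (47.2). In introns of total RNA, Ndufa5 was at 18.9 (next 46.1) and Cox4i2 was listed at 0 (2.88) in the 15 min library of replicate 2, where Cox7a1 was highest at 11.6 (3.46). Cox6a1 introns reached 43.6 (26.8) in the total 60 min library of replicate 1, and Uqcrfs1 introns 48.8 (27.6) in the labeled 15 min library of replicate 1. The sets pool labeling times, and the cause was not tested.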

How the results depend on the processing

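Of 382 single-gene values recomputed under the alternatives, 244 kept direction and side of the threshold, 131 lost a call, 2 gained one and 5 reversed. Of 149 counts and medians, 92 stayed. The cause of these changes was not tested, except that single times and left-out replicates have fewer libraries. Counts below are members called, then all genes. Median centring gave 4 and 3108 in exons, 8 and 1644 in introns and 3 and 1007 in the ratio. With the replicate block, exons gave 1 and 1270, and no other count moved by over 1.5 times. At 15 min alone all were 0. At 30 min alone exons gave 0 and 4, introns 1 and 1, and the ratio 0 and 0. At 60 min alone all were 0. Taking single transcripts gave 6269 exonic calls among 34196 transcripts. Without replicate 1 or 2, exons gave 0 to 0 members and 0 to 5 genes, introns 0 to 34 and 4 to 7789, and the ratio 4 to 20 and 464 to 4501. In settings chosen after seeing the data, leaving out the labeled 60 min library of replicate 2 gave 3 and 2580 in exons, 54 and 8130 in introns and 41 members in the ratio, and leaving out the total 15 min library of replicate 2 gave 3135 genes in introns and 14 and 1421 in the ratio. Without the total 60 min library of replicate 1 these counts stayed within 1.5 times.

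For 60 against 15 min no member was called under any alternative run. Over all genes, labeled RNA gave 6 with no filter. Total RNA gave 4 with a pseudocount of 20, 8 with no filter, 3 after centring, 2 with single transcripts and 7 without the labeled 60 min library of replicate 2. The difference gave 4, 8 and 2 with the pseudocount, no filter and that library left out. Leaving out a replicate there leaves no residual degrees of freedom, so it could not be fitted.

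The Uqcrc1 exonic difference reversed to 0.20 at 30 min alone. That of Ndufs4 introns was -0.66 after centring, -0.57 without replicate 1 and 0.65 without replicate 2, -0.21 at 30 min alone and -0.04 without the total 15 min library of replicate 2. The members' median labeled-to-total ratio was 0.957 at 15 min and 1.17 at 30 min, and the intron-to-exon ratio in total RNA 4.75% and 7.21%. Processing was at 87.3, 31.2 and 17.7 per hour at 15, 30 and 60 min, where dividing by time lowers it by construction. By replicate these medians ranged from 1.07 to 1.15, 5.93% to 6.30% and 40.7 to 49.6. The files do not give each library's depth, so low intronic values have no counting error.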
